A study of Rattus norvegicus with 10 samples.

Results

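Transcripts of 9 genes of macrophages and of the receptors for the Fc part of antibodies were followed in rat milk whey over lactation. The genes were Fcer1g, Fcgr1a, Tyrobp, Csf1r, Emr1, Aif1, Cd68, Lyz2 and Laptm5. Every non-control probe on the array whose gene name in the files is one of these was taken, which gave 13 probes of 41012. The genes were chosen from results of these same arrays, in which the change of Fcer1g between d 2 and d 16 was already known, so the day-to-day values below describe the chosen genes and are no independent evidence of a change. The samples came from 3 lactating F344/N dams, an inbred rat strain, which carried no transgene and received no treatment apart from oxytocin and light anaesthesia for milking. Each dam was milked on d 2, on d 9 and again on d 16 after giving birth, and each whey sample had an array of its own, so a day had 3 arrays. Serum was drawn from the 3 dams on d 21 and pooled on 1 array, so serum has no replicate. Whey was prepared by spinning off fat, cells and casein and passing the rest through filters, so the arrays measured RNA that stayed in a fluid freed of cells and not a cell population.

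Macrophages are phagocytes that live in most tissues, the lactating mammary gland among them, and they are also the common leukocytes of milk. Fc receptors bind antibody that coats a particle. Fcgr1a is the high-affinity receptor for IgG, and it has no signalling motif of its own. It pairs with Fcer1g, the common gamma chain, whose cytoplasmic ITAM motif is phosphorylated by Src-family kinases. Tyrobp, also called DAP12, is a related ITAM adaptor for receptors such as Trem2. Csf1r is the receptor for the growth factors that keep macrophages alive. Emr1, now named Adgre1, is an adhesion receptor whose protein serves as a surface marker of macrophages. Aif1 is an actin-binding protein of activated macrophages, Cd68 a heavily glycosylated lysosomal protein, Lyz2 the lysozyme that cuts bacterial cell walls, and Laptm5 a lysosomal membrane protein of leukocytes.

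The probes were 60 bases long. Those of 4 genes are shown, a set bright on d 16 and a dim set. The first holds Aif1 and Lyz2, which were higher on d 16 than on d 2, although Lyz2 was near background on d 2. The dim set holds the second probe of Fcgr1a and the only probe of Emr1, which were near background on most whey arrays. The letters in lower case are the probe as the array files give it, 5′ to 3′, and no part is set in capitals because no base was singled out.
Aif1: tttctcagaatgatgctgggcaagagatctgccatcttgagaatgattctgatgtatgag
Lyz2: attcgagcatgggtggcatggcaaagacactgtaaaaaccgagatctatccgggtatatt
Fcgr1a, dim probe: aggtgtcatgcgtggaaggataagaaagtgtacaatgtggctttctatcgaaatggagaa
Emr1: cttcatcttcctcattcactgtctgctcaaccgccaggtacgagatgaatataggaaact

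Each of these 4 probes has at least 1 frame without a stop codon. On rat build rn4 the files place the Aif1 probe at chr20:3715562-3716143 on the plus strand, the Lyz2 probe at chr7:56608440-56609236 on the minus strand and the Emr1 probe on an unplaced sequence, chrUn:64821266-64823251. These 3 spans were 582, 797 and 1986 bases long and so cross at least 1 intron. The Lyz2 probe is also assigned by the array design to a second lysozyme transcript, so its signal may be shared between near-identical copies. The remaining main probes lie within a single 60-base block: Fcer1g at chr13:87119567-87119626 on the minus strand, Fcgr1a at chr2:191095045-191095104 on the minus strand, Tyrobp at chr1:85369110-85369169 on the plus strand, Cd68 at chr10:56481762-56481821 on the minus strand and Laptm5 at chr5:149797871-149797930 on the plus strand. Exon and untranslated region annotation of rn4 was not used here.

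Values are given as processed signal, the background-subtracted brightness of a spot before any scaling, and as log2 of that signal after quantile normalization. The 75th percentile of the processed signal ran from 12.5 to 83.2 over the 9 whey arrays and was 4.11 on the serum array, and 11538 to 19139 spots of a whey array were well above background against 6714 in serum. Milk protein transcripts were bright in whey, with a mean of 16.78 for Csn2 (beta-casein), against 10.47 in serum. Dams 1 and 2 of d 2 shared slide 1. Dam 3 of d 2 lay on slide 2 beside all of d 9, and all of d 16 lay beside serum on slide 3, which was scanned on another day. The slide and the day cannot be told apart for d 16.

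All 9 whey arrays measured 5 of the 13 probes well above background, some arrays measured another 5, and none measured the other 3. Testing required a spot well above background and brighter than 20 on at least 1 array of a day. By that rule 9 probes of 8 genes were tested and Csf1r was not. Fcgr1a, Cd68, Lyz2 and the second Tyrobp probe met this rule on the later days alone, when they were bright, so their difference from d 2 was in part built in by the filter, and Emr1 met it through 1 array. In a fluid, RNA shed by fewer cells and less RNA shed per cell cannot be told apart.

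Transcripts of the Fc receptor complex were measured on all 3 days. The processed signals of Fcer1g were 29.7, 26.9 and 50.8 on d 2 in dams 1 to 3, 184, 299.6 and 443 on d 9 and 354, 1707 and 731 on d 16. The 3 days did not overlap before normalization except that d 16 whey of dam 1 lay below d 9 whey of dam 3. After normalization the Fcer1g level was 5.44 ± 0.47 on d 2, 7.24 ± 0.40 on d 9 and 9.16 ± 0.67 on d 16 (log2, SD, n = 3 dams), and the days then did not overlap. The widest spread was on d 16, where dam 2 stood at 9.90 and dam 1 at 8.61.

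Fcgr1a, the receptor that pairs with Fcer1g, showed the same order of days. Its signals were 16.3, 16.9 and 18.0 on d 2, 100.4, 145 and 218 on d 9 and 181, 443 and 331 on d 16. All 3 d 2 arrays were thus below the minimum signal of 20 although they were well above background. The normalized Fcgr1a level was 4.43 ± 0.52, 6.29 ± 0.48 and 7.80 ± 0.15 on d 2, d 9 and d 16, with no overlap between days. The second Fcgr1a probe is described with the other dim probes.

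Tyrobp had signals of 118, 139 and 201 on d 2, 760.3, 1126 and 1613 on d 9 and 1074, 3116 and 1764 on d 16. Every d 2 value lay below every later value, while d 9 and d 16 overlapped before normalization and no longer did after it. The normalized level was 7.49 ± 0.32, 9.17 ± 0.54 and 10.44 ± 0.30.

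**Figure D1:**
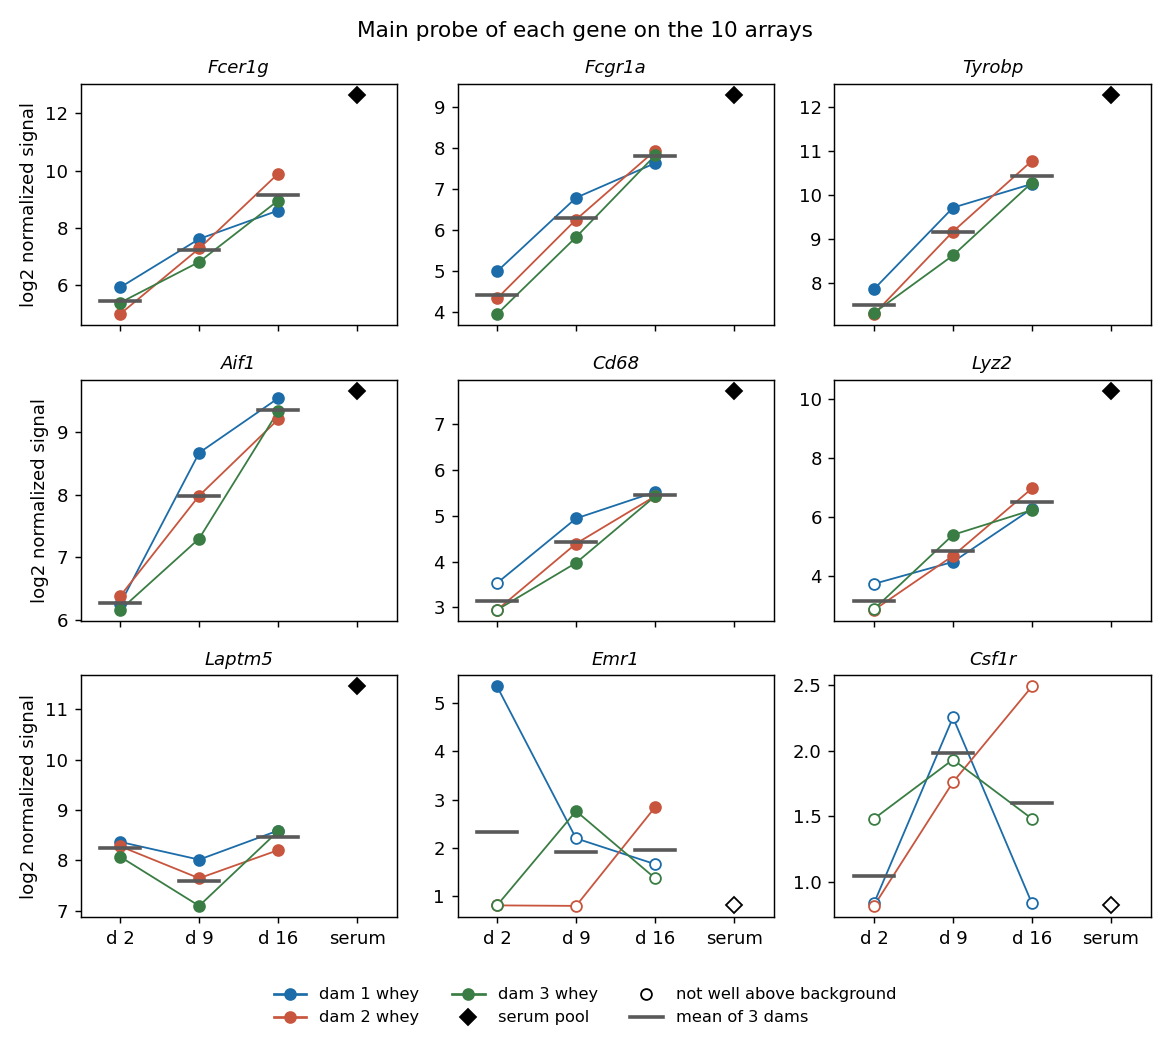
Log2 normalized signal (y axis, a different range in each panel) of the main probe of each gene in whey of 3 dams on d 2, d 9 and d 16 and in the serum pool (x axis), with lines joining the whey of 1 dam, bars for the mean of 3 dams and open symbols for arrays not well above background. Fcer1g, Fcgr1a, Tyrobp, Aif1, Cd68 and Lyz2 rise from d 2 to d 16 in each dam, from 5.44 to 9.16 for Fcer1g, whereas Laptm5 stays between 7.09 and 8.59 and Csf1r is open on every array.

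Among the cytoplasmic and lysosomal genes, Aif1 had signals of 37.5, 71.6 and 87.7 on d 2, 374, 497 and 624 on d 9 and 671, 1078 and 952 on d 16, with no overlap between any 2 days. Its normalized level was 6.26 ± 0.11, 7.99 ± 0.69 and 9.36 ± 0.17. The d 9 values spread from 7.30 in dam 3 to 8.67 in dam 1, wider than on the other days. Before normalization dam 3 was the brightest on d 9 and dam 1 the dimmest, so the order of the dams depended on the scaling.

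Cd68 was close to background. Its signals were 6.37, 6.29 and 8.53 on d 2, none of them well above background, then 27.2, 36.2 and 50.9 on d 9, then 41.7, 75.2 and 62.6 on d 16. Its d 2 level is therefore only a bound: measured means were 3.14, 4.44 and 5.46, and Cd68 exceeded d 2 at least 1.96-fold on d 9 and at least 3.99-fold on d 16. These bounds set the mean of the bright day against the dim probe's own value or the lowest value well above background on the same array, whichever was higher.

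Lyz2 signals were 7.17, 5.90 and 8.15 on d 2, again none well above background, then 19.8, 45.6 and 157 on d 9, then 70.9, 226 and 111 on d 16. The d 9 signals covered a wide range over the dams, and dam 3 was the brightest. The whole d 9 array of dam 3 was also brighter, with a 75th percentile of 83.2 against 21.2 for dam 1. After normalization the d 9 values of Lyz2 were 4.49, 4.69 and 5.40. Measured means were 3.16, 4.86 and 6.50, and Lyz2 exceeded d 2 at least 2.63-fold on d 9 and at least 8.23-fold on d 16.

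Laptm5 covered a narrower range than the genes above, 7.09 to 8.59 over the 9 whey arrays. Its signals were 169.8, 283 and 336 on d 2, 242, 386 and 539 on d 9 and 349.9, 529 and 563 on d 16. The normalized level was 8.24 ± 0.15 on d 2, 7.58 ± 0.46 on d 9 and 8.46 ± 0.22 on d 16. The 3 d 9 values lay below those of both other days without overlap, but the d 9 difference from d 2 was -0.66 with an SE of 0.24 and an adjusted p of 0.096 in limma, and the d 16 difference from d 2 was 0.22 with the same SE and an adjusted p of 0.52. The direction on d 9 turned under scaling to the spike-in controls, where the difference was 0.83, and with another background correction (normexp) Laptm5 passed as lower on d 9, at -0.50 with an adjusted p of 0.044.

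The surface receptors Emr1 and Csf1r were near or under background. Emr1 was well above background on 3 of 9 whey arrays, 1 on each day, with signals of 20.4, 1.66 and 1.79 on d 2, 3.78, 1.95 and 18.2 on d 9 and 3.02, 10.8 and 2.42 on d 16. The bright arrays were of dam 1 on d 2, dam 3 on d 9 and dam 2 on d 16, so no day and no dam stood out. The differences between days had an SE of 1.21 on the log2 scale and adjusted p-values of 0.84 to 0.99 in limma, and the direction turned with the array left out. The main probe of Csf1r was not well above background on any whey array, with signals from 1.67 to 8.32, nor in serum, where it was 1.54. No level or change can be given for Csf1r.

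For Tyrobp the bright and the dim probe moved the same way, while the dim probes of Fcgr1a and Csf1r stayed near background and give no change. The second Tyrobp probe lies 8 bases from the main one at chr1:85369042-85369101 but on the opposite strand. Its signals were 5.93, 1.85 and 5.02 on d 2, 10, 20.6 and 23.3 on d 9 and 19.7, 24.0 and 25.8 on d 16, and it was well above background on all d 9 and d 16 arrays and on no d 2 array. It exceeded d 2 at least 1.64-fold on d 16, with an adjusted p of 0.030 in limma, while its d 9 difference had an adjusted p of 0.16. Its measured differences were 1.19 on d 9 and 1.96 on d 16, against 1.68 and 2.95 for the main probe, all on the log2 scale. Which transcript this probe reads was not tested, and it is not counted below, where each gene is taken by its main probe, the one measured on most whey arrays.

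The second Fcgr1a probe, whose sequence is given above, lies 3934 bases from the main one at chr2:191099039-191099098, on the same strand. It was well above background on 1 of 9 whey arrays, d 9 whey of dam 3, at a signal of 14.5. The other whey signals of this probe were 1.89 to 8.60, whereas the main probe rose above 100 on d 9, so the difference given for Fcgr1a rests on the main probe alone. The other Csf1r probes were below the well above background limit on all 10 arrays, with signals of 2.09 to 2.64 and of 1.63 to 2.09. One of them maps 43713 bases from the main Csf1r probe, farther than the 26653 bases of the RefSeq gene in assembly GRCr8, and the other has no position in the files.

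**Figure D2:**
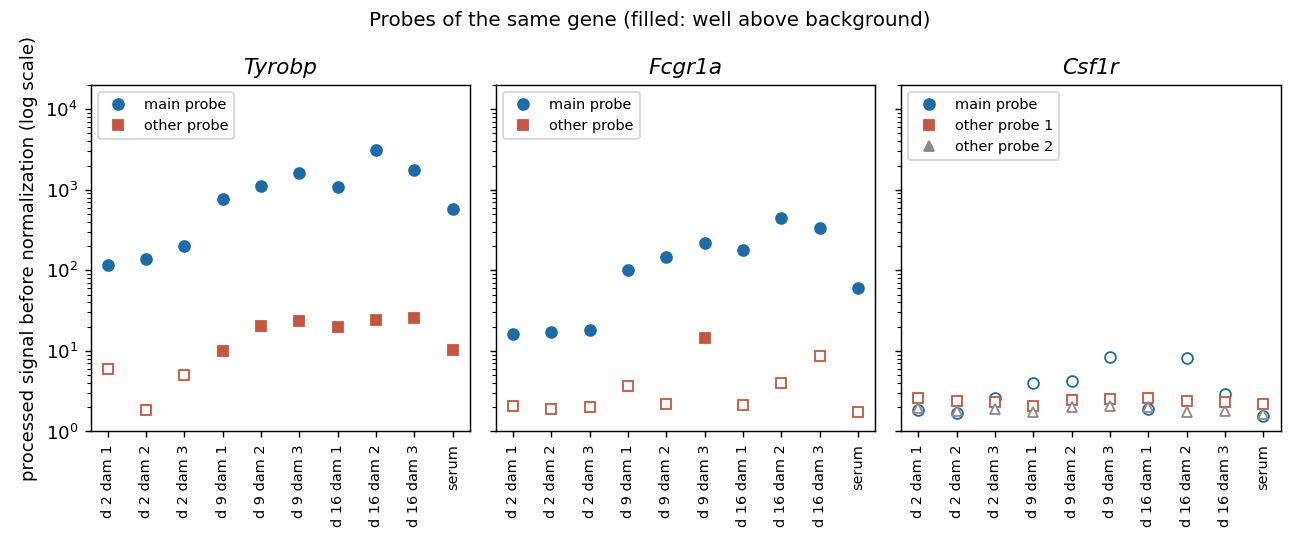
Processed signal before normalization (y axis, log scale) of each probe of Tyrobp, Fcgr1a and Csf1r on the 10 arrays (x axis), filled where well above background. The main probe of Tyrobp runs from 118 to 3116 over the whey arrays and its other probe from 1.85 to 25.8, the other Fcgr1a probe is filled on 1 array, and all Csf1r points are open.

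Between d 2 and d 9, 6 of the 8 genes tested were higher on d 9 at an adjusted p under 0.05 (limma, Benjamini-Hochberg over 16849 probes), and none was lower. Of all probes tested 17.7% passed in either direction and 11.2% passed as higher on d 9. The log2 differences of the genes above background on both days were 1.80 ± 0.39 for Fcer1g, 1.86 ± 0.31 for Fcgr1a, 1.68 ± 0.30 for Tyrobp and 1.72 ± 0.31 for Aif1 (SE), with adjusted p-values of 0.0192, 0.0090, 0.0109 and 0.0109. Cd68 and Lyz2 passed with 0.0161 and 0.0166. Of the 6 genes 3, Fcer1g, Tyrobp and Aif1, met the filter on d 2 itself. In all 6 genes each of the 3 dams was higher on d 9 and the days did not overlap, as in 24.1% of all probes. Within slide 2, the only slide with both days, the 3 d 9 arrays stood 1.49 to 2.33 above d 2 whey of dam 3 in these genes. With the slide as a fixed block Fcgr1a alone of the 8 passed, and as a random block all 6 did. The correlation within slides estimated for the random block was -0.082. Passing under it therefore does not show that the differences hold apart from the slide. By the methods' Tukey-Kramer test 6 passed without adjustment over probes and none after it, an adjustment that the methods do not name. Of all 16849 probes 4063 passed that test without adjustment. Without d 2 whey of dam 2 the limma count was 3, as Fcer1g, Cd68 and Lyz2 missed the threshold with adjusted p-values of 0.056 to 0.062. Fcer1g also missed it without d 9 whey of dam 1, where Laptm5 passed as lower with 0.045, and Fcer1g and Cd68 missed it without d 9 whey of dam 2.

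Between d 2 and d 16 the same 6 genes were higher on d 16, by 3.72 ± 0.39 for Fcer1g, 3.36 ± 0.31 for Fcgr1a, 3.1 ± 0.31 for Aif1 and 2.95 ± 0.30 for Tyrobp (log2, SE). Their adjusted p-values were 0.000816, 0.000596, 0.00072 and 0.000773, with 0.00113 for Cd68 and 0.000816 for Lyz2. This amounts to 13.1-fold for Fcer1g and 7.72-fold for Tyrobp, per mass of RNA and not per volume of whey. The paper reports that whey of the earliest day held much more RNA per volume than whey of the later days. A rise per mass of RNA can therefore be smaller, absent or reversed per volume of whey. The change per volume was not tested for these genes on either later day. Of all probes 28.5% passed and 16.0% passed as higher on d 16, and 25.9% had all d 16 values above all d 2 values, as these 6 genes did. Nothing is read from the counts of 6 on d 9 and d 16, since results of these contrasts were known when the genes were chosen.

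From d 9 to d 16 none of the 8 genes passed in limma after adjustment, and 7 passed the methods' Tukey-Kramer test without adjustment over probes. Of all 16849 probes 2040 passed that unadjusted Tukey-Kramer test. The differences were 1.92 ± 0.39 for Fcer1g, 1.50 ± 0.31 for Fcgr1a, 1.27 ± 0.30 for Tyrobp, 1.38 ± 0.31 for Aif1, 1.02 ± 0.26 for Cd68, 1.64 ± 0.35 for Lyz2 and 0.87 ± 0.24 for Laptm5, with adjusted p-values of 0.063 to 0.12. Each of these 7 genes was higher on d 16 in all 3 dams and without overlap, as were 11.8% of all probes. In limma after adjustment 1.42% of probes passed and 0.558% passed as higher on d 16. The call depended on the setting: 5 genes passed with the slide as a random block and 7 with normexp, while 1 passed without d 2 whey of dam 1, Fcgr1a, and 1 without d 9 whey of dam 1, Aif1.

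**Figure D3:**
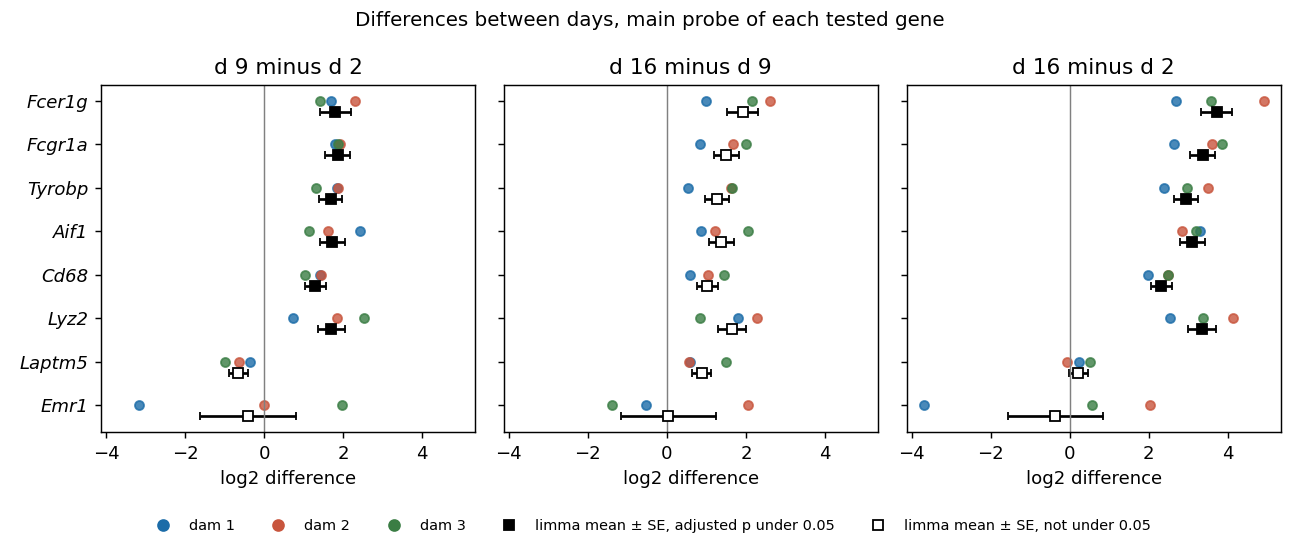
Log2 difference between days (x axis) for the main probe of each tested gene (y axis), with a point for each dam and a square with its standard error for the limma estimate of 3 dams, filled where the adjusted p was under 0.05. The first 6 genes lie right of 0 in every dam in all 3 panels and are filled for d 9 minus d 2 and d 16 minus d 2, as for Fcer1g at 1.80 and 3.72, while Laptm5 at -0.66 and 0.22 and Emr1 are open.

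How the arrays were scaled moved these sizes but not the direction of the 6 genes. Relative to the spike-in controls the median of all probes was itself 1.52 higher on d 9 and 0.58 higher on d 16 than on d 2 (log2), and the 6 genes were higher by 2.68 to 3.39 on d 9 and by 2.94 to 4.35 on d 16. From d 9 to d 16 the same scaling put the median of all probes at -0.93 and the 6 genes at 0.25 to 0.99. Under spike-in scaling limma gave each of the 8 genes the same SE of 0.71, so calls there do not reflect each gene's own spread. With normexp, which adds an offset of 50 and so compresses dim probes, the d 16 differences from d 2 were 0.69 for Cd68, 1.12 for Lyz2 and 2.37 for Fcer1g, and Lyz2 missed the threshold on d 9 with an adjusted p of 0.081.

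The other genes of these pathways were taken from lists of Fc receptors, ITAM signalling, the Csf1r axis, lysosomal proteins and macrophage markers. The array held 84 of them and 40 were tested. From d 2 to d 9, 9 rose and 5 fell, and from d 2 to d 16, 17 rose and 3 fell, with median log2 differences of 0.43 and 0.84 against 0.11 and 0.04 over all probes. From d 9 to d 16, 1 rose and none fell. Of all probes tested 11.2%, 16.0% and 0.558% passed as higher on the later day in these 3 comparisons, and 17.7%, 28.5% and 1.42% in either direction. These shares are the base for the counts of each list below. Of the related genes that rose, 6 of 9 on d 9 and 11 of 17 on d 16 met the filter on a later day and on no d 2 array, so the filter in part built in their direction and the counts and medians support nothing about the lists. Under spike-in scaling none of the 40 fell in any comparison, and 23, 13 and 0 rose.

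Of 10 other Fc receptors on the array 5 were well above background on no whey array, among them Fcer1a and Ms4a2, the alpha and beta chains of the mast cell IgE receptor, and Fcgrt, which carries IgG across epithelia. Fcgr3a, a low-affinity IgG receptor that also uses the gamma chain, was not well above background in d 2 whey and was at least 4.17-fold higher in d 16 whey (adjusted p 0.0009 in limma) and at least 1.48-fold higher in d 9 whey (0.0102), having met the filter on the later days alone. Fcgr2a was well above background on no d 2 array, 1 d 9 array and 2 d 16 arrays, and its call likewise came through the later days. Fcer2, the low-affinity IgE receptor CD23, fell by 1.57 from d 2 to d 9 (adjusted p 0.0070) and rose by 1.36 from d 9 to d 16 (0.0468), the only related gene that passed in that step. The inhibitory receptor Fcgr2b, with means of 1.31, 3.06 and 4.21, did not pass in any comparison.

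In ITAM signalling 22 genes were on the array and 11 were tested, of which 4 rose and 2 fell from d 2 to d 16. Fgr, a Src-family kinase of myeloid cells, was well above background on 1 d 2 array and all d 16 arrays, with measured means of 3.44 and 4.67 (adjusted p 0.020), so its d 2 level is uncertain. Lyn, a kinase of that family found in more cell types, fell by 1.02 to d 9 (adjusted p 0.0153) and by 0.93 to d 16 (0.0133), though spike-in scaling put its d 9 difference at 0.45. Plcg2, a phospholipase downstream, fell by 1.18 to d 16 (0.024), and the phosphatase Ptpn6 had differences of 0.29 and 0.27 that did not pass. Syk, the kinase that binds phosphorylated ITAMs, was well above background on no whey array.

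On the Csf1r axis 5 of 10 genes on the array were tested and 2 rose. Csf1, a ligand of Csf1r, was well above background on no d 2 array and on 2 arrays of each later day, and exceeded d 2 at least 1.13-fold on d 16. Irf5, an interferon regulatory factor, was not well above background in d 2 whey and was at least 1.28-fold higher on d 9 (0.0108) and 2.15-fold higher, again a lower bound, on d 16 (0.0017). Csf1 and Irf5 both met the filter on the later days alone. Spi1, which encodes the myeloid factor PU.1, was well above background on 1 whey array, and Runx1 had differences of -0.28 and 0.28 that did not pass.

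Of the lysosomal genes 13 of 19 were tested and 4 rose from d 2 to d 16. The lysozyme-like Spaca3 rose by 2.30 (adjusted p 0.0022), the tetraspanin Cd63 by 1.48 (0.0030) and the lysosomal enzyme subunit Hexa by 1.07 (0.029). The study's quantitative PCR found no change of Cd63 over lactation, but it compared equal volumes of whey and not equal masses of RNA. Lamp1, a general lysosomal membrane protein, had differences of -0.23 and 0.21 that did not pass.

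Of 23 macrophage markers on the array 16 were well above background on no whey array, among them Cd163, Msr1, Marco, Itgam, Siglec1, Mpeg1 and Cx3cr1. Of the 6 that were tested 5 rose from d 2 to d 16 and Cd14, an endotoxin co-receptor, fell by 1.88 (adjusted p 0.0095). C1qb, a subunit of the complement component C1q, rose by 3.69 (0.0010) and Coro1a, an actin-binding protein of leukocytes, by 2.90 (0.0006), both measured on all whey arrays. C1qa, another C1q subunit, was well above background on 1 d 2 array, with measured means of 3.81 on d 2 and 7.11 on d 16, and Ncf1, a subunit of the phagocyte oxidase, on no d 2 array, exceeding d 2 at least 2.63-fold on d 16. C1qa and Ncf1 met the filter on the later days alone. The summed normalized signal of the 23 markers, on the linear scale, was 340 to 492 in d 2 whey, 305 to 700 in d 9 whey and 946 to 1042 in d 16 whey. Such a sum, here and for the cell types below, weighs the brightest markers most and does not speak for a whole list. The brightest here were Cd14 on d 2, with a log2 mean of 8.11, and C1qb on d 16, with 8.77.

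**Figure D4:**
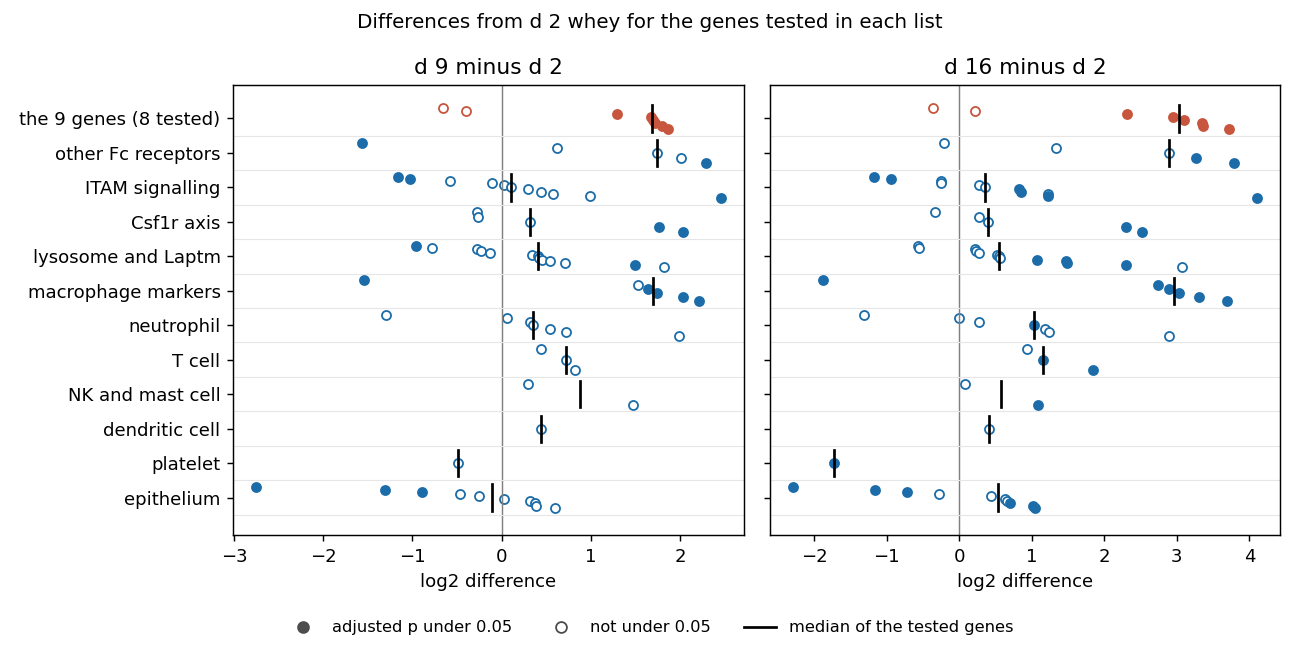
Log2 difference from d 2 whey (x axis) in d 9 whey (left) and d 16 whey (right) for the tested genes of each list (y axis), filled where the adjusted p was under 0.05, with a line for the median. Of the other macrophage markers 5 are filled on the right of 0 for d 16 and 1, Cd14 at -1.88, on the left, and the epithelial genes lie on both sides of 0.

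Markers of other cell types were counted in the same way. Of all probes tested 16.0% passed as higher on d 16 than on d 2, and nothing is read from counts of so few markers. Of neutrophil markers 1 of 7 tested rose from d 2 to d 16, the defensin Np4 by 1.03 (adjusted p 0.0079), while S100a8 differed by 1.23 with an adjusted p of 0.42, and the summed signal of 14 markers was 94.8 to 114 on d 2 and 102 to 465 on d 16. Mpo, the peroxidase of neutrophil granules, was too dim to be tested, and was well above background on all 3 d 2 arrays, on 1 d 9 array and on no d 16 array, with d 2 exceeding d 16 at least 2.76-fold. Elane, Ltf, Csf3r and Mmp8 were well above background on no whey array. Of T cell markers 2 of 3 rose, Cd3d by 1.84 (0.0029) and Cd3g by 1.16 (0.016), and the summed signal of 10 markers was 63.9 to 96.0 on d 2 and 152 to 201 on d 16, although Cd3e, Cd4 and Cd8a were well above background on no whey array. Of NK and mast cell markers Nkg7 rose by 1.08 (0.030), and the summed signal of 10 markers was 41.0 to 49.6 on d 2 and 66.3 to 70.8 on d 16. No B cell marker of 7 was tested, and their summed signal was 16.6 to 22.7 on d 2 and 16.4 to 25.2 on d 16.

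The dendritic marker Itgae differed by 0.41 with an adjusted p of 0.11, and the 6 dendritic markers summed to 139 to 160 on d 2 and 174 to 224 on d 16. The platelet gene Pf4 fell by 1.73 (0.0134), and the 5 platelet markers summed to 50.2 to 78.3 on d 2 and 23.1 to 32.3 on d 16. All 10 epithelial and milk protein genes were above background on all whey arrays, 3 rose to d 16, among them Csn2 by 1.05 (0.0057) and Wap by 0.70 (0.016), and 3 keratins fell. After quantile normalization the SD of Wap was only 0.00027 on d 2 and 4.1e-05 on d 16. Its p-value therefore does not measure the spread between dams. In equal volumes of whey, the study's quantitative PCR found no change of Csn2 or Wap over lactation. The part of these other cell types in the values of the 9 genes was not tested.

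The 5 probes whose profile over the 9 whey arrays was most like the mean profile of the 5 fully detected probes were looked for among 7254 other probes well above background on all of them. They belonged to LOC685157, annotated as similar to a paired immunoglobulin-like type 2 receptor (Pearson r = 0.990), Arhgdib (0.989), B2m (0.985 and 0.984 for 2 probes) and Exoc6 (0.984). The 9 arrays are of 3 dams and share the step between days, and the 5 fully detected probes include Laptm5, so r is a description. LOC685157 had means of 5.11, 7.24 and 8.97 on d 2, d 9 and d 16, and the 2 probes of B2m rose from 13.14 to 14.39 and from 11.79 to 13.18.

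In serum the same genes were detected on an array with little signal. The processed signals in serum were 723 for Fcer1g, 573 for Tyrobp, 309 for Laptm5, 127 for Lyz2, 76.2 for Aif1, 60 for Fcgr1a and 21.3 for Cd68, all well above background, while Emr1 and Csf1r were not. Before scaling Fcer1g and Lyz2 lay within the range of the d 16 arrays and the other 5 genes below it. After quantile normalization 6 of 8 genes were more than 4-fold higher in serum than in the mean of the 9 whey arrays, and none was more than 4-fold higher in whey. The factors were 41.6 for Fcer1g, 10.3 for Laptm5, 9.53 for Tyrobp and 8.73 for Fcgr1a, with 3.48 for Aif1. For Cd68 and Lyz2, whose d 2 levels are only bounds, d 16 whey minus serum was -2.28 and -3.79 on the log2 scale. Of all 21172 probes compared 15.8% were more than 4-fold higher in serum and 27.2% in whey.

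The serum comparison rested on the scaling. Relative to the spike-in controls 0 of the 8 genes differed by more than 4-fold, Aif1 was 1.96 higher in whey (log2), Fcer1g was 1.89 higher in serum, and the median of all probes was 2.69 higher in whey against 0.76 under quantile normalization. Against d 16 whey on the same slide 4 genes were more than 4-fold higher in serum under quantile normalization, and Aif1 differed by 0.31 on the log2 scale. The pool is 1 array, so no spread between animals is known for serum.

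**Figure D5:**
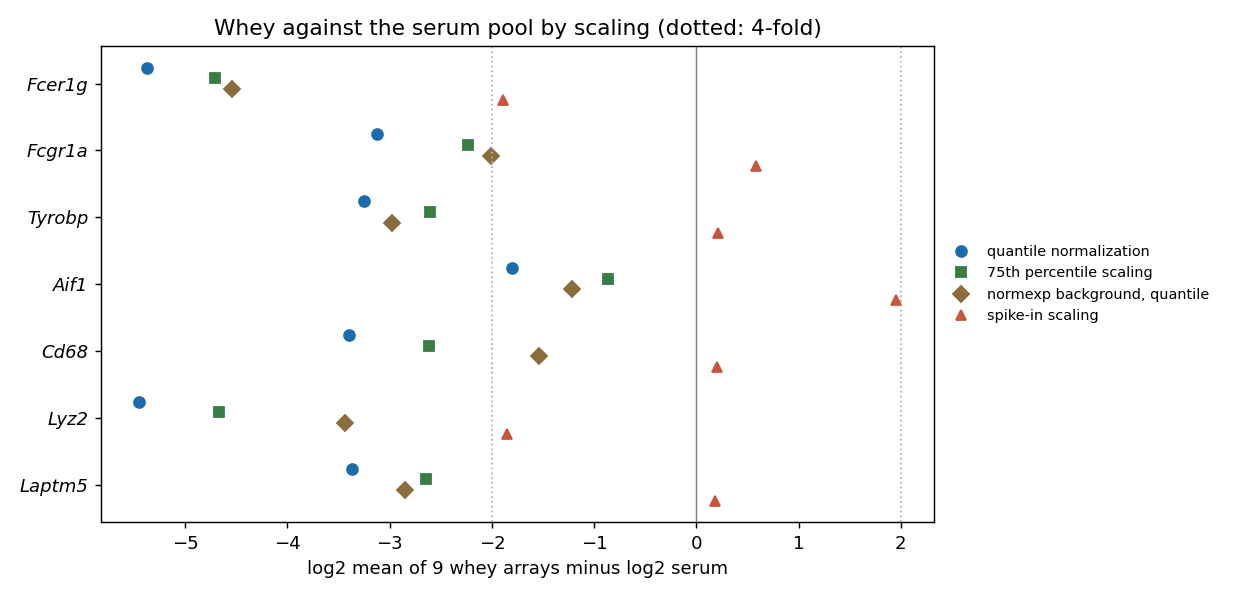
Log2 mean of 9 whey arrays minus log2 serum (x axis) for 7 genes (y axis) under 4 ways of scaling the arrays, with dotted lines at 4-fold. Quantile normalization places Fcer1g at -5.38 and spike-in scaling at -1.89, Aif1 moves from -1.80 to 1.96, and the whey means of Cd68 and Lyz2 include 3 d 2 arrays not well above background.

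Promoters of 5 of the 9 genes, Cd68, Lyz2, Emr1 (as Adgre1), Csf1r and Laptm5, were matched in RefSeq (assembly GRCr8). The 250 bases before the start were searched on both strands for GAGGAA, the core of the site of PU.1, a factor of macrophage development. All 5 held it, as did 23.3% of 33469 rat promoter windows of the same length, and none held the longer GAGGAAGT, present in 2.04%. Those of Cd68 and Lyz2, which were higher on d 16, and of Laptm5, which did not pass the test, are shown. Capitals mark GAGGAA or its reverse complement, and each sequence runs 5′ to 3′ towards the start.
Cd68, chr10:54882442-54882691 (minus strand): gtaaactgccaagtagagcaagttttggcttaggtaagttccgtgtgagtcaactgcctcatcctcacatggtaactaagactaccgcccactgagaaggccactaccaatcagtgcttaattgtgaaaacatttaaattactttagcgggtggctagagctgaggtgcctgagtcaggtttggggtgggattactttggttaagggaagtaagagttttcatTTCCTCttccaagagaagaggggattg
Lyz2, chr7:54798012-54798261 (minus strand): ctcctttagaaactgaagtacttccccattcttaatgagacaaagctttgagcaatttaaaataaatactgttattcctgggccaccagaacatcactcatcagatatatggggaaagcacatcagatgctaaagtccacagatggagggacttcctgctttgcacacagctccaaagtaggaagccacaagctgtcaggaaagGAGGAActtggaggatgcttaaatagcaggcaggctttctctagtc
Laptm5, chr5:148371630-148371879 (plus strand): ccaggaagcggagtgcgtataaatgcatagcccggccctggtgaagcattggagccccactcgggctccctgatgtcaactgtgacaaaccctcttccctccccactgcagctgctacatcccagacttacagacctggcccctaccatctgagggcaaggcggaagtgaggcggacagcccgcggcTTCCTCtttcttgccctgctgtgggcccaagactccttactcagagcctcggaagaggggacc

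The match starts 27 bases before the start in Cd68, 46 in Lyz2 and 63 in Laptm5, so genes that passed and a gene that did not both held it. A match of letters is not evidence of binding.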

How the data were processed

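The arrays were Agilent Whole Rat Genome arrays with 1 colour (Cy3), hybridised with amplified RNA of 9 whey samples and 1 serum pool. The authors deposited the processed signal intensity of each spot as Agilent Feature Extraction 9.5.3.1 wrote it, background-subtracted and not normalized between arrays, per the file headers. The same files give flags for spots well above background and for outliers. A table of the whole series has 10 columns of per-sample values whose names match no sample label, and they were not used. Positions are on rn4 as the files give them, and 16815 of 20503 RefSeq accessions were matched to current symbols.

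Outlier spots were dropped, log2 intensities were quantile normalized over the 10 arrays, as the study's methods do, and spots of the same probe were averaged. No member value was imputed. Of 41012 non-control probes 16849 passed the filter stated with the results. limma 3.58.1 (R 4.3.3) was fitted to the 9 whey arrays with all 3 days sharing 1 spread, two-sided, with Benjamini-Hochberg adjustment over the tested probes. Lower bounds, shares and promoters were computed in Python 3.11.15 with pandas 2.3.3 and numpy 2.4.6. The fit was tested on simulated data.

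The genes and lists were chosen with earlier results of these data known. Each gene was counted by its probe well above background on most whey arrays. Named from each related list were the up to 4 called genes with the largest change to d 16 and 1 uncalled gene, and from each other cell type the 2 markers measured on most arrays. Fcgr2a, Csf1, Cd14, Mpo, Spi1, Syk and the genes listed as not above background were named after their values were seen. Some genes that this rule names are not reported here. Same-numbered samples came from the same dam. The correlations of their deviations from the day means over probes ran from -0.018 to 0.218. Nothing says that the p-values measure more than the spread between these 3 dams, and the number of arrays limits the precision.

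Alternatives were scaling to the 75th percentile or to spike-in probes, quantile normalization over whey alone, normexp (offset 50), other filters, the dam as a replicate block, the slide as a fixed or random block, another probe of the gene, the methods' Tukey-Kramer test and leaving out each whey array. The study shows the Tukey-Kramer test for RNA concentrations, quantitative PCR and proteins, not for the arrays.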

Additional observations from a re-analysis of the deposited data

How the results depend on the processing

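From d 2 to d 16, 6 of the 8 genes passed under every alternative run except a minimum signal of 100, which left Cd68 untested and 5 that passed. The slide as a fixed block could not be run for d 16, which shared its slide with no other whey day. The d 16 counts are thus not shown to hold apart from the slide. The random block does not show it either, since its estimated correlation within slides was -0.082. From d 2 to d 9, 6 passed, against 1 with the slide as a fixed block, 0 by the Tukey-Kramer test after adjustment (6 without it), and 3 to 6 with 1 whey array left out. The 6 that passed with normexp were 5 higher and Laptm5 lower. From d 9 to d 16, 0 passed, against 7 with normexp, 5 with a minimum signal of 100, 4 when a probe had to be well above background on all arrays of a day, 5 with the slide as a random block, 7 by the unadjusted Tukey-Kramer test and 0 to 1 with an array left out.

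Of the 40 related genes 14 passed from d 2 to d 9, against 23 with spike-in scaling, 8 with a minimum signal of 100, 1 with the slide as a fixed block, 5 by the adjusted Tukey-Kramer test and 10 to 16 with an array left out. From d 2 to d 16, 20 passed, against 13, 11 and 10 with spike-in scaling, the minimum of 100 and the adjusted Tukey-Kramer test, and 14 to 20 with an array left out. From d 9 to d 16, 1 passed, against 0 with spike-in scaling, 8 with normexp, 3 with the minimum of 100, 4 when all arrays of a day had to be above background, 5 with the slide as a random block, 0 and 12 by the adjusted and unadjusted Tukey-Kramer test, and 0 to 2 with an array left out. Over all probes, 2975 passed from d 2 to d 9, against 6882 with spike-in scaling, 499 with the slide as a fixed block and 1287 by the adjusted Tukey-Kramer test. From d 2 to d 16 it was 4808 against 749 with spike-in scaling and 2678 by the adjusted Tukey-Kramer test. From d 9 to d 16 it was 239 against 867 with normexp, 680 with the slide as a random block and 2040 by the unadjusted Tukey-Kramer test. The higher filters also left fewer probes to adjust over. With a minimum signal of 100, 2976, 4133 and 608 of 9605 probes passed from d 2 to d 9, d 2 to d 16 and d 9 to d 16. When all arrays of a day had to be above background, 3487, 5049 and 468 of 13756 passed. The SE with spike-in scaling was 0.71 for each of the 8 genes, so its counts are not directly comparable with the others. The cause of the other differences was not tested.

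Emr1 reversed: its d 9 minus d 2 difference of -0.40 was 0.67 with spike-in scaling and 1.11 with the slide as a fixed block, and ran from -1.16 to 1.11 with an array left out. Its d 16 minus d 2 difference of -0.36 was 0.011 with spike-in scaling and ran from -1.12 to 1.15, and its d 16 minus d 9 difference of 0.04 was -0.66 and ran from -0.52 to 0.46. Laptm5 reversed with spike-in scaling, to 0.83 for d 9 minus d 2 and to -0.050 for d 16 minus d 9. With the dam as a replicate block the 3 counts were 6, 6 and 0 for the members and 14, 19 and 1 for the related genes. The serum count of 6 was 0 with spike-in scaling, 5 with normexp, 4 against d 16 whey alone and 6 to 7 with an array left out, and quantile normalization over whey alone gives no serum value. Signal over background limits Cd68 and Lyz2 on d 2, Emr1 throughout and Csf1r altogether.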
